A study of Homo sapiens with 5 samples.

Results

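These results concern stretches of RNA from the introns of protein-coding genes, recovered by CLIP-Seq from HEK-293, a line of human embryonic kidney cells, that do not lie opposite a SINE, a short interspersed repeat such as Alu. A region was taken when the deposited annotation placed it in a protein-coding intron on its own strand and named no SINE on the opposite strand. There were 239 such regions among 714 protein-coding intronic regions and 3147 listed regions in all, over 5 lists. Of these, 107 lay opposite no repeat and 132 opposite a LINE, an LTR, a simple or low complexity repeat, or a DNA or satellite repeat. The rule itself makes every member intronic, and the annotation classes regions over a repeat of their own strand apart from introns.

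Introns are cut out of the primary transcript by the spliceosome, mostly in the nucleus, so reads from an intron come from unspliced or partly spliced RNA or from excised introns. LINEs and LTR elements are remnants of retrotransposons and are common in introns in either orientation. Simple repeats are short units in tandem, and low complexity sequence is rich in 1 or a few bases. Poly-GR, an arginine-rich dipeptide-repeat protein, is translated from C9ORF72 transcripts that carry the repeat expansion of ALS and FTD, and is known to bind RNA and to gather in nucleoli.

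The cells were transiently transfected with GFP-(GR)50, a GFP fusion with 50 glycine-arginine repeats, with GFP alone or with GFP-(GP)10, which carries 10 glycine-proline repeats instead, or were left untransfected. All were crosslinked with ultraviolet light at 254 nm, and all lysates went through the same pulldown with GFP-binding beads, although untransfected cells hold no GFP. Experiment 1 used RNase I at 0.04 units/ml and held replicate 1 of GFP-(GR)50, named GFP-(GR)50_1 as in its label, and 1 GFP library. Experiment 2 used 0.02 units/ml and held replicate 2, GFP-(GR)50_2, with 1 GFP-(GP)10 library and 1 untransfected library. Lists of bound regions give no levels of cell type markers, so the identity of the cell line was not tested.

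Each list gives, for every region, the reads that map to one place and a second value to which multimapping reads were added after scaling by the authors. No region had a scaled value under 5 reads, so a place without a region may still have had reads below that minimum. Uniquely mapping reads over all regions summed to 1603 in GFP-(GR)50_1, 6230 in GFP, 9229 in GFP-(GR)50_2, 1522 in GFP-(GP)10 and 8606 in untransfected cells. Each control has a single library. Every test below therefore compares the regions of 2 lists, and its p-value knows only the counts of regions, not how cultures vary.

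The RNA letters under 2 of these regions can be shown, those that lie whole within a RefSeq promoter window (GRCh38.p14), and both came from control lists. These 2 regions are examples and cannot show how regions opposite a low complexity repeat differ in their bases from regions opposite no repeat. The first lies in the gene of AURKB, a mitotic kinase, on the minus strand, with 5 uniquely mapping reads in the GFP list, opposite low complexity sequence. Its nearest base lies 19 and 43 bases upstream of the 2 RefSeq starts of AURKB, inside an intron as the deposited annotation has it. The second lies in MED12L, a paralogue of the Mediator subunit MED12, on the plus strand, with 5 uniquely mapping reads in the GFP-(GP)10 list, opposite no repeat. It lies 195 bases upstream of the start of GPR171, which runs on the other strand. Each is written 5′ to 3′ on the strand of the RNA, with both positions given included, and capitals mark its longest run of C and T. AURKB, on the minus strand, thus runs from the last position given to the first.
AURKB, chr17:8210268-8210308: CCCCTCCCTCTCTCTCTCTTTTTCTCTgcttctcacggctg
MED12L, chr3:151203411-151203449: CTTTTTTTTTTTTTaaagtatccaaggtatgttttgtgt
C and T made up 87.8% of the 41 bases in AURKB, with a run of 27, and 66.7% of the 39 bases in MED12L, with a run of 14. The sources used here do not say if positions start at 0 or 1, so either end may be off by 1 base.

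The first comparison asks whether introns free of opposite SINEs made up more of the RNA regions in GFP-(GR)50 lists than in control lists. No difference in this share passed the test in either experiment. In experiment 1 they took 5 of 183 regions (2.73%) in GFP-(GR)50_1 against 14 of 472 (2.97%) in GFP, a difference of -0.234 points with a 95% interval from -2.73 to 3.47 (adjusted exact p = 1, by the two-sided test of Fisher with Benjamini-Hochberg adjustment over 3 comparisons). In experiment 2 they took 76 of 805 (9.44%) in GFP-(GR)50_2 against 20 of 348 (5.75%) in GFP-(GP)10, a difference of 3.69 points (0.211 to 6.68; adjusted exact p = 0.111). Against 124 of 1339 (9.26%) in untransfected cells the difference was 0.180 points (-2.30 to 2.82; adjusted exact p = 1). The mean of the GFP-(GR)50 lists was 6.09% ± 4.74 (SD, n = 2). Each of these 2 lists comes from another experiment with another RNase I amount, so the SD is not a spread of replicates within 1 experiment. With the same number of top regions by scaled reads taken from each list, the difference from untransfected cells became 4.10 points and passed (adjusted exact p = 0.00656). The one from GFP-(GP)10 turned to -1.44 points (adjusted exact p = 0.488). This setting drops the regions with fewest reads, and only from the longer list. Against untransfected cells it kept 76 of 805 in GFP-(GR)50_2 and cut the control to 43 of 805. Against GFP-(GP)10 it cut GFP-(GR)50_2 to 15 of 348. Most of these regions stand near the minimum of reads, so neither value can tell a difference of the lists from the cut.

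Within introns the picture was different. Of the protein-coding intronic regions, those not opposite a SINE took 76 of 187 (40.6%, exact interval 33.5 to 48.1) in GFP-(GR)50_2 against 124 of 426 (29.1%, 24.8 to 33.7) in untransfected cells. This difference of 11.5 points (3.40 to 19.8) passed among the 3 comparisons (adjusted exact p = 0.0197), but not when the adjustment ran over all 9 tests reported here (adjusted exact p = 0.0591). The difference from GFP-(GP)10, with 20 of 75 (26.7%, 17.1 to 38.1), was 14.0 points (1.08 to 25.2) and did not pass (adjusted exact p = 0.0520). In experiment 1 the counts were 5 of 6 in GFP-(GR)50_1 and 14 of 20 in GFP, too few for the test to tell (13.3 points, -29.3 to 39.1; adjusted exact p = 1). On the minus strand alone, an alternative chosen after seeing the data, the difference from untransfected cells was 8.61 points and did not pass (adjusted exact p = 0.216). On the plus strand alone, chosen likewise, it was 16.1 points and passed (adjusted exact p = 0.0216). Without regions opposite simple or low complexity repeats alone, also chosen likewise, it was 14.4 points and passed (adjusted exact p = 0.00136). The adjustment in these settings ran over 3 comparisons only. Regions opposite SINEs, the other side of this split, took 13.8% of all regions in GFP-(GR)50_2, 15.8% in GFP-(GP)10 and 22.6% in untransfected cells.

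**Figure D1:**
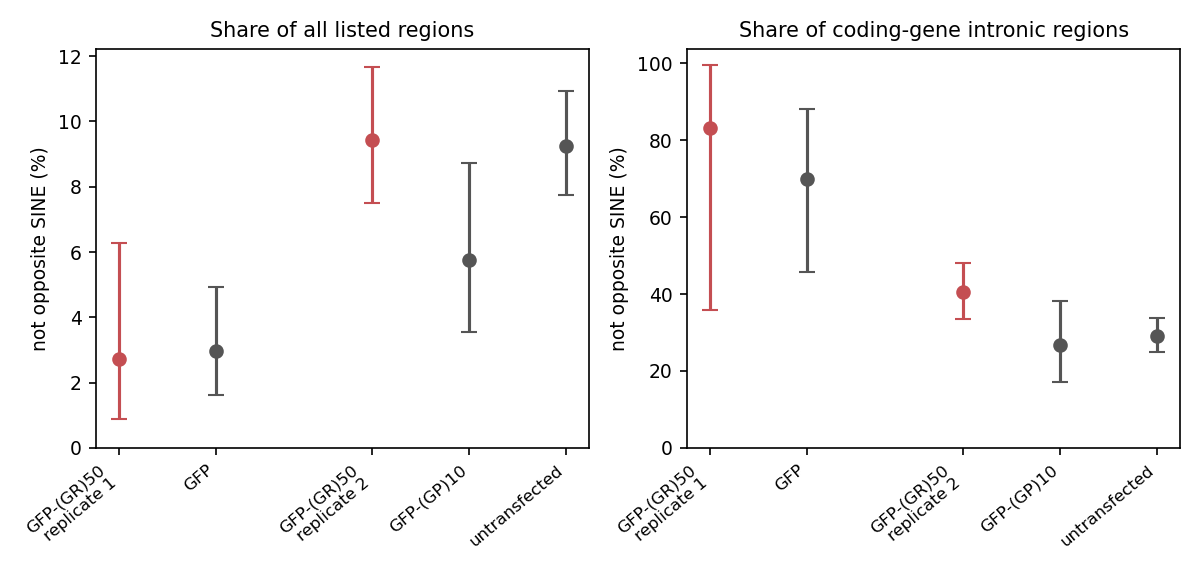
Regions in protein-coding introns not opposite a SINE, as a percentage of all listed regions (left) and of protein-coding intronic regions (right), per list. Points are shares and bars are exact 95% intervals of counting error, red for GFP-(GR)50 and grey for controls. In the right panel GFP-(GR)50_2 stands at 40.6%, against 26.7% in GFP-(GP)10 and 29.1% in untransfected cells.

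Regions opposite no repeat and regions opposite another repeat were then taken apart. Opposite no repeat there were 5 of 5 regions in GFP-(GR)50_1 and 8 of 14 in GFP. In experiment 2 there were 41 of 76 (53.9%) in GFP-(GR)50_2, 7 of 20 (35.0%) in GFP-(GP)10 and 46 of 124 (37.1%) in untransfected cells. The share opposite another repeat was thus 46.1% in GFP-(GR)50_2 against 62.9% in untransfected cells, a difference of -16.9 points (-30.2 to -2.68) that did not pass (adjusted exact p = 0.0817). Against 65.0% in GFP-(GP)10 the difference was -18.9 points (-39.0 to 5.45; adjusted exact p = 0.208), and against 42.9% in GFP it was -42.9 points in GFP-(GR)50_1 (-67.4 to 5.61; adjusted exact p = 0.192). As a share of all listed regions, introns opposite no repeat took 2.73% in GFP-(GR)50_1 and 1.69% in GFP. They took 5.09% in GFP-(GR)50_2, 2.01% in GFP-(GP)10 and 3.44% in untransfected cells.

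The repeats were of 4 kinds, and the 5 regions opposite more than 1 kind count under each. In experiment 2, simple and low complexity repeats lay opposite 13 of 76 regions (17.1%) in GFP-(GR)50_2, 6 of 20 in GFP-(GP)10 and 40 of 124 (32.3%) in untransfected cells. LINEs lay opposite 17 regions (22.4%), 7 regions (35.0%) and 30 regions (24.2%) in the same lists. LTR elements lay opposite 3 regions in GFP-(GR)50_2, 0 in GFP-(GP)10 and 7 in untransfected cells, and DNA or satellite repeats opposite 4, 1 and 3. In experiment 1 no region of GFP-(GR)50_1 lay opposite a repeat, while GFP had 3 opposite LTR elements, 2 opposite LINEs and 1 opposite low complexity sequence. These counts by kind of repeat were not tested.

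**Figure D2:**
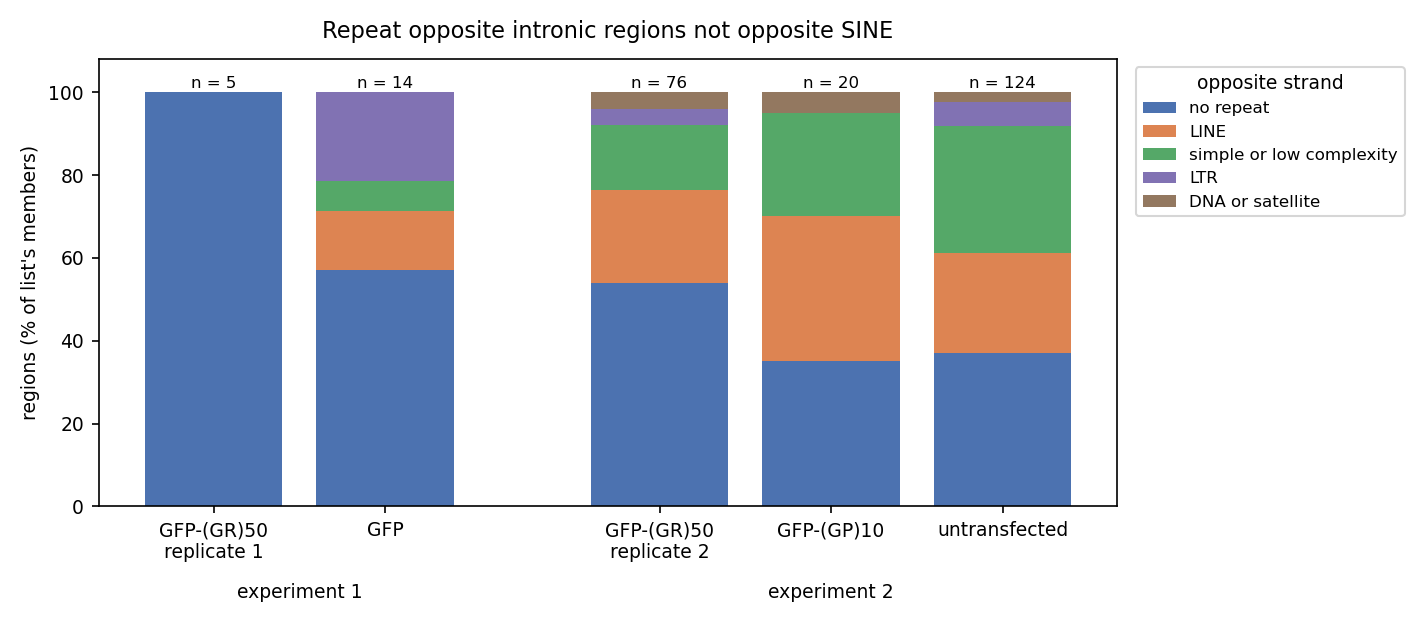
Make-up of the intronic regions not opposite a SINE by the repeat on the opposite strand, as a percentage of the regions of each list, with their number above each bar and the 5 regions opposite a LINE and another kind drawn as LINE. Regions opposite no repeat make up 53.9% in GFP-(GR)50_2, 35.0% in GFP-(GP)10 and 37.1% in untransfected cells.

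The strand of these regions followed the annotation of the repeats. All 60 regions opposite a simple or low complexity repeat lay on the minus strand. In the same files, all 395 regions classed as a simple or low complexity repeat of their own strand lay on the plus strand, and 140 of those lay within protein-coding introns but were not classed as intronic. In these lists the annotation thus gives such repeats the plus strand only, and an intronic region over one is counted here when its gene runs on the minus strand and not when its gene runs on the plus strand. Regions opposite no repeat were 58 on the plus and 49 on the minus strand. The minus strand held 44 of 76 regions (57.9%) in GFP-(GR)50_2, 9 of 20 (45.0%) in GFP-(GP)10 and 86 of 124 (69.4%) in untransfected cells. From untransfected cells, the share opposite another repeat in GFP-(GR)50_2 differed by -2.47 points on the plus strand and -19.9 on the minus strand. Without regions opposite simple or low complexity repeats alone the difference was -10.6 points. None of these values passed, and these settings were chosen after seeing the data.

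**Figure D3:**
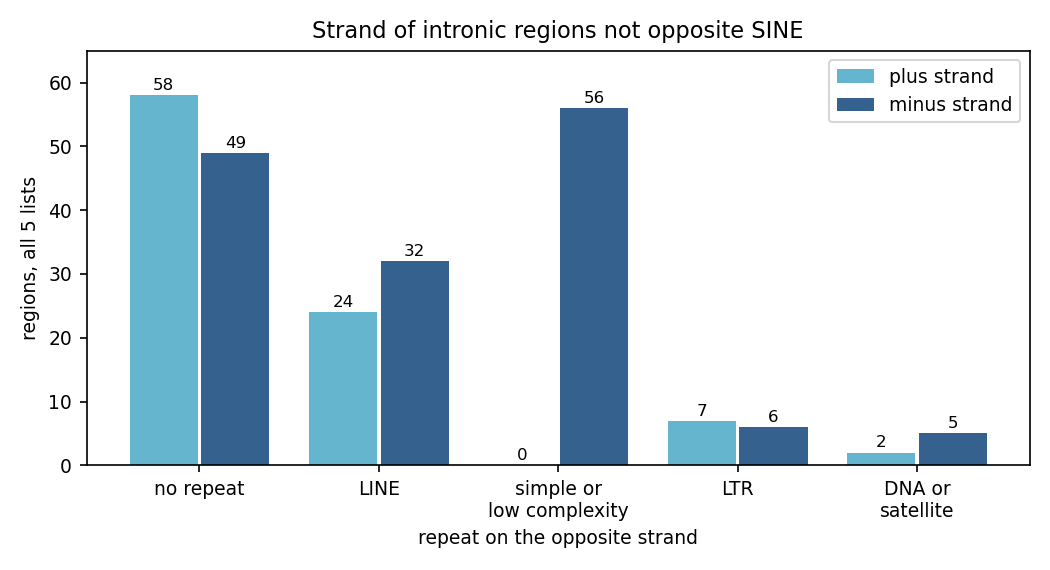
Number of intronic regions not opposite a SINE on the plus and minus strand over all 5 lists, by the repeat on the opposite strand, with the 5 regions opposite a LINE and another kind drawn as LINE. Regions opposite simple and low complexity repeats alone are 0 on the plus and 56 on the minus strand, while regions opposite no repeat have 58 and 49.

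Most of these regions were short and stood close to the minimum of the lists. Their median width was 42.0 bp in GFP-(GR)50_1 and 30.5 bp in GFP, and 43.5 bp in GFP-(GR)50_2, 42.5 bp in GFP-(GP)10 and 47.0 bp in untransfected cells. In experiment 2 the intronic regions opposite SINEs were wider, with medians of 52.0, 52.0 and 51.0 bp in the same lists. The median number of uniquely mapping reads was 5 in each of the 5 lists, and 170 of the 239 regions had 5 or 6. In experiment 2, unlike the lists as a whole, the regions rested on reads that map to one place, which made up 92.3% of their scaled reads in GFP-(GR)50_2, 99.5% in GFP-(GP)10 and 92.9% in untransfected cells. Over all regions of those lists the figures were 6.88%, 20.4% and 38.2%, and over intronic regions opposite SINEs they were 95.8%, 95.6% and 90.3%.

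Of all uniquely mapping reads, the regions held 1.68% (1.11 to 2.44) in GFP-(GR)50_1 against 1.04% (0.806 to 1.33) in GFP. They held 7.67% (7.14 to 8.23) in GFP-(GR)50_2, 8.21% (6.88 to 9.71) in GFP-(GP)10 and 9.20% (8.60 to 9.83) in untransfected cells. With reads in ribosomal RNA left out, the shares were 11.9% against 1.12% in experiment 1, from 27 of 226 and 65 of 5797 reads, and 14.7%, 8.61% and 9.47% in experiment 2. Much of the value of 14.7% came from the 4 regions of GFP-(GR)50_2 with most reads, without which it was 8.98% (8.16 to 9.86). No regions were left out of the control lists in this way, so 8.98% cannot be set against their shares. On scaled reads the order in experiment 1 turned, at 0.0477% in GFP-(GR)50_1 against 0.336% in GFP, and the shares in experiment 2 were 0.571% in GFP-(GR)50_2, 1.68% in GFP-(GP)10 and 3.79% in untransfected cells. The exact Clopper-Pearson 95% intervals cover counting error only.

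The regions with most reads in GFP-(GR)50_2 lay in GALNT1, SUSD1, PRICKLE2 and CYP26C1. Together these 4 held 304 of the 708 uniquely mapping reads, 42.9%. None of them had a listed region in GFP-(GR)50_1 or in any control, so their high counts have no second library behind them. GALNT1, an enzyme that starts O-linked glycosylation, had 142 uniquely mapping reads in a region of 24 bp opposite a LINE (chr18:35589204-35589228, plus strand). SUSD1, a sushi domain protein, had 79 reads in 42 bp opposite low complexity sequence (chr9:112130421-112130463, minus strand).

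PRICKLE2, a planar cell polarity protein, had 42 reads in 37 bp opposite no repeat (chr3:64327422-64327459, minus strand). CYP26C1, a cytochrome P450 that breaks down retinoic acid, had 41 reads in 26 bp opposite no repeat (chr10:93064806-93064832, plus strand), in a stretch it shares with the gene AL358613.3. Only 9 of the 76 regions of this list had 10 or more uniquely mapping reads, and 6 of the 9 had no region in any control list. Of the regions of any class with 10 or more such reads in this list, 82 of 147 (55.8%) had none in the controls of experiment 2. The other two of these 6 lay in ENPP6, a choline-specific phosphodiesterase, with 13 reads in 29 bp, and in HLCS, the enzyme that attaches biotin to carboxylases, with 10 reads in 36 bp, both opposite low complexity sequence.

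**Figure D4:**
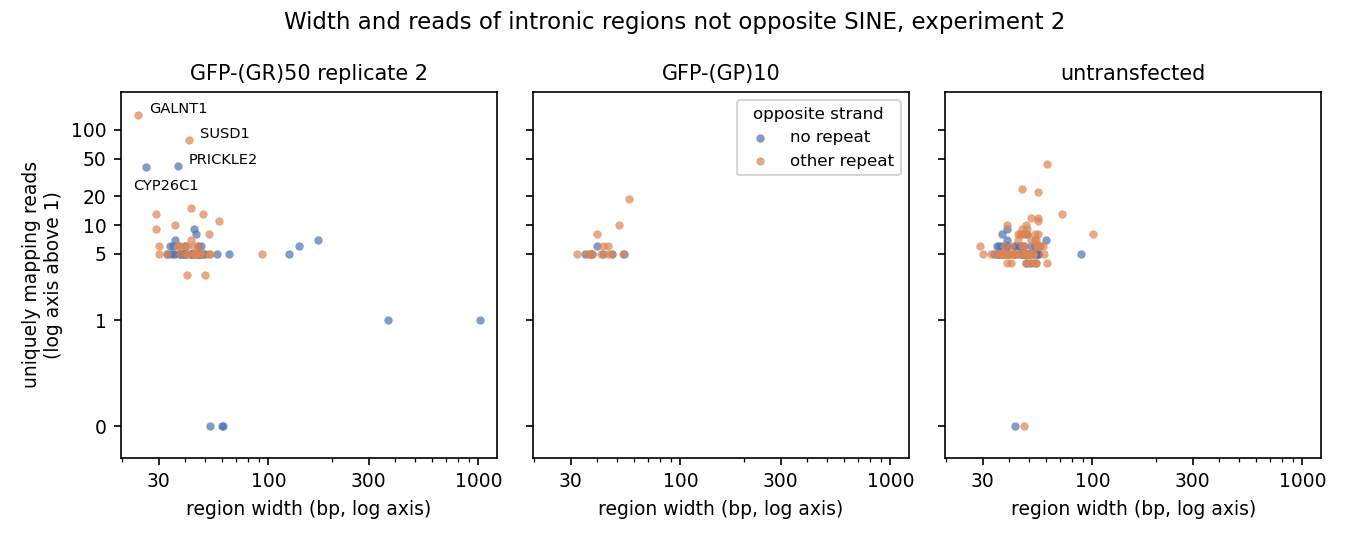
Width in bp against uniquely mapping reads of each intronic region not opposite a SINE in the lists of experiment 2, blue opposite no repeat and orange opposite another repeat, both axes logarithmic above 1 read. GALNT1 with 142 reads in 24 bp stands highest in GFP-(GR)50_2, and the highest region of untransfected cells has 44 reads.

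The places listed in more than 1 library were few, and all lay in experiment 2. The 239 regions fell on 228 distinct places, of which 220 were listed in 1 library, 5 in 2 and 3 in 3. Of the 76 regions of GFP-(GR)50_2, 7 (9.21%) overlapped a region of untransfected cells by at least 1 bp on the same strand, where 25.7% of all regions of that list did, and they matched 7 of the 124 regions of untransfected cells (5.65%). With GFP-(GP)10 they shared 3 regions (3.95%), where 121 of all 805 regions of GFP-(GR)50_2 did, and these matched 3 of the 20 regions of GFP-(GP)10. Intronic regions opposite SINEs had overlaps of the same order, 11.7% with untransfected cells and 2.70% with GFP-(GP)10. By kind, 1 of 41 regions opposite no repeat (2.44%) and 6 of 35 opposite another repeat (17.1%) overlapped any control region of experiment 2, where 29.3% of all regions of the list did.

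The replicates of GFP-(GR)50 shared no such region. None of the 5 regions of replicate 1 overlapped a region of replicate 2, although 82.0% of all regions of replicate 1 did, and none of the 76 regions of replicate 2 overlapped one of replicate 1, where 16.1% of all regions did. None of the 5 overlapped a region of GFP either, where 55.7% of all regions of replicate 1 did. Ribosomal RNA made up 114 of the 183 regions of replicate 1 and 119 of the 805 of replicate 2. Overlaps of all regions with ribosomal RNA left out were not counted. Intronic regions opposite SINEs also had no overlap between the replicates, with 0 of 1 in replicate 1 and 0 of 111 in replicate 2. The RNase I amount differed between the experiments, and its part in this was not tested.

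The shared places had nearly the same ends in each list, with starts within 5 bp and ends within 9 bp of each other. The place in DGKI, a diacylglycerol kinase (chr7:137540744-137540790), had 15 uniquely mapping reads in GFP-(GR)50_2, 8 in GFP-(GP)10 and 24 in untransfected cells, opposite a LINE. The place in EOMES, a T-box transcription factor (chr3:27720513-27720570), had 8, 19 and 22 reads in the same lists, opposite a simple repeat. That in SRGAP2B, a partial copy of SRGAP2 (chr1:145044632-145044693), had 11, 10 and 44 uniquely mapping reads, of 12.2, 10.1 and 49.2 scaled reads. Since SRGAP2 has near-identical copies, some reads may still belong to another of them. At all 3 places untransfected cells had the most reads. The lists differ in depth, with 9229 uniquely mapping reads in GFP-(GR)50_2, 1522 in GFP-(GP)10 and 8606 in untransfected cells. Relative to these totals, GFP-(GP)10 stood highest at all 3 places.

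Of the other shared places, CRYBG2, a crystallin domain protein, had 13 reads in GFP-(GR)50_2 and 12 in untransfected cells. ACYP2, an acylphosphatase, had 5 and 10, and CT55, a cancer/testis antigen, had 6 and 8. MYO5B, a myosin of recycling endosomes, had 6 reads in GFP-(GP)10 and 8 in untransfected cells and no region in GFP-(GR)50_2. All of these lay opposite a repeat. Of the 8 shared places, 7 lay on the minus strand.

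**Figure D5:**
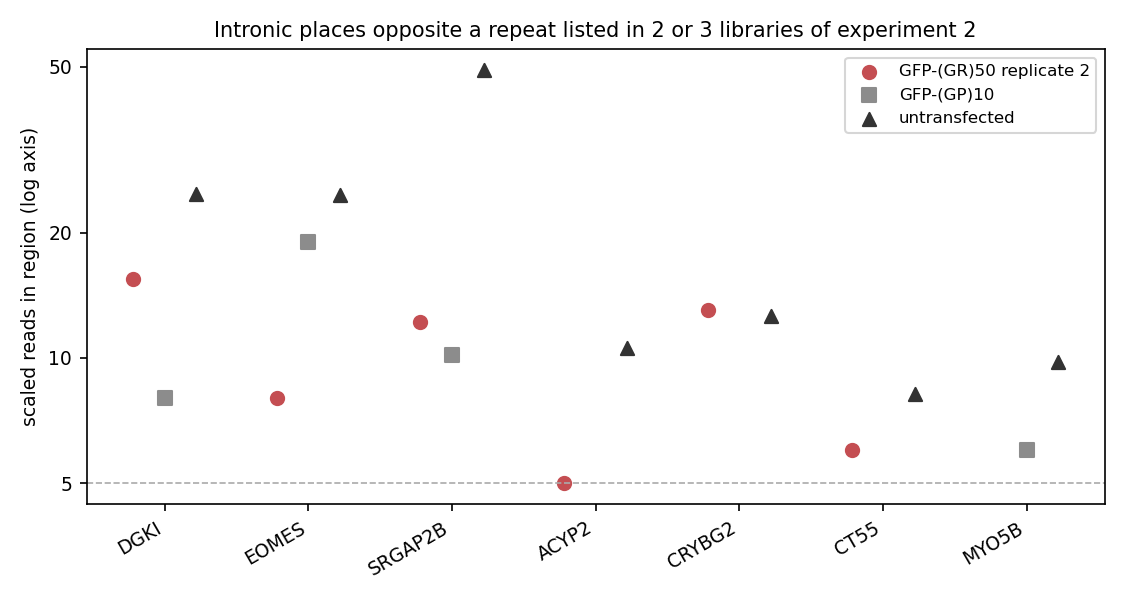
Scaled reads at the 7 places in introns opposite a repeat that were listed in 2 or 3 libraries of experiment 2, on a log axis, with the list minimum of 5 reads dashed and no symbol where a list has no region. SRGAP2B has 12.2 scaled reads in GFP-(GR)50_2, 10.1 in GFP-(GP)10 and 49.2 in untransfected cells.

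DAZAP1, an RNA-binding protein that takes part in splicing, was the only gene with such a region in both GFP-(GR)50 lists, at places that do not overlap. In replicate 1 it had 7 uniquely mapping reads (chr19:1412753-1412833), the most of the 5 regions of that list. In replicate 2 it had 5 reads in each of 2 regions 16355 bp apart (chr19:1408653-1408778 and chr19:1425133-1425176). All 3 lay opposite no repeat, and no control list had a region in an intron of DAZAP1 of this kind. The other 4 regions of replicate 1 had 5 reads each and lay in FBRSL1, in ZNF592, a zinc finger protein, in RPL37A, a protein of the large ribosomal subunit, and in SLC25A51, the mitochondrial carrier of NAD. None of these genes had a region of any class in GFP, as held for 41.3% of all 109 gene names in that list.

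Of the 75 gene names that host these regions in GFP-(GR)50_2, 60 (80.0%) had no region of any class in a control list of experiment 2. Of all 549 gene names in that list 68.5% had none, and of the 115 that host intronic regions opposite SINEs 81.7% had none. Besides those described above, the genes among the 60 with most reads had 6 to 9 uniquely mapping reads. CHRNA4, a subunit of the nicotinic acetylcholine receptor, had 9 reads. PAFAH1B1, a regulator of dynein, had 8. CLASP2, which binds growing microtubule ends, and DYNC2H1, the heavy chain of the dynein of cilia, had 7 each, and ARMC4 (now ODAD2), which docks dynein arms in cilia, had 6. CAPN15, a calpain, had 7 and was the 1 host gene of the list with a region in an exon as well. ABCC4, an exporter of organic anions, ARHGAP26, a GTPase-activating protein, and BCOR, a corepressor of BCL6, had 6 reads each. With counts this near the minimum of 5, a place missing from a control list may differ from it by a few reads.

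The same gene seldom had several such regions in 1 list. There were 9 such cases among 224 host gene names, including DAZAP1 and STAG2 in GFP-(GR)50_2 and DPYD, FRMD4A, NRP1, PTPRG and SLIT2 in untransfected cells. STAG2, a cohesin subunit, had 2 regions 2195 bp apart with 5 reads each. Apart from the rule for named genes, these were chosen after their values were seen.

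The gene lists held few of the host genes. Of 82 cytosolic ribosomal protein genes, RPL37A had a region in GFP-(GR)50_1 with 5 uniquely mapping reads and RPL13A in GFP-(GR)50_2 with 6, and none had one in a control list. Of all host names of these regions, 6 of 6 in GFP-(GR)50_1 and 60 of 75 in GFP-(GR)50_2 had no region in a control list of the same experiment. Over all gene names of those lists the shares were 41.3% and 68.5%. RPL13A was also the 1 gene of 61 protein-coding hosts of snoRNAs, small guides of RNA modification made from introns. Of 32 stress granule proteins, ATXN2 and PUM2, both RNA-binding proteins, had a region in GFP-(GR)50_2, with 6 and 5 reads. ATXN2 was the 1 gene of 38 linked to ALS and FTD.

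Of 70 genes of common fragile sites and other very long genes, 5 had such a region. GFP-(GR)50_2 had one in WWOX, an oxidoreductase named after its values were seen, and the genes with one in untransfected cells included CCSER1, DPYD, which breaks down pyrimidines, and TBC1D5, a regulator of retromer. PTBP3, a splicing regulator, was the 1 gene of 48 for hnRNP and SR splicing factors, with 6 reads in untransfected cells. EIF2S3, a subunit of the initiation factor that brings the first tRNA, was the 1 of 56 translation factors, with 5 reads in GFP. None of the 50 nucleolar and ribosome biogenesis factors and none of the 37 cytoskeleton genes had such a region in any list. These counts are descriptions and were not tested.

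In the GFP list no host gene had more than 1 of the 14 regions. JAK1, a cytokine receptor kinase, had 6 uniquely mapping reads, and TNFRSF10A, a receptor for TRAIL, SEC31B, a coat protein of transport vesicles, and AURKB had 5 each. In untransfected cells INPP4B, a phosphoinositide phosphatase, had 13 reads opposite an LTR element, the most after the 3 places shared with both other lists. In GFP-(GP)10 ARMH4, in a stretch it shares with PSMA3-AS1, MYO5B and TMEM268 came next after those places with 6 reads each, TMEM268 being named after its value was seen.

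By chromosome, 11 of 76 regions (14.5%) lay on chromosome 19 in GFP-(GR)50_2, 0 of 20 in GFP-(GP)10 and 3 of 124 (2.42%) in untransfected cells. Over all regions chromosome 19 held 7.45%, 3.45% and 3.96% of the same lists, and over intronic regions opposite SINEs 10.8%, 10.9% and 5.63%. Of the 11, 8 lay opposite no repeat, in DAZAP1, RPL13A, EPN1, MRPL4, REXO1, PIP5K1C and AKT2. Chromosome 19 was picked, and its genes named, after the counts were seen, and the counts were not tested.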

How the data were processed

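Reads were 110 nt long. The submitters' processing notes name featureCounts 2.0.2, bedtools 2.30.0, UMI-tools 1.1.2 and Novoalign 4.03.03, with GRCh38.p13 and hg38 as builds. The method of region calling was not stated in them. Each library has its own deposited list. Per the file headers, the first of its read columns is a count of uniquely mapping reads, not normalised, and in GFP-(GR)50_2, where 6 values are not whole, it was taken as a deposited expected count. The other holds an expected count (estimated count) with multimapping reads scaled by the authors.

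Regions were chosen from the deposited annotation, with rRNA taken from its types and gene names. Fisher's exact test, two-sided (scipy 1.17.1), compared shares within each experiment, adjusted by Benjamini-Hochberg over 3 comparisons per question, at a threshold of 0.05. Intervals of shares are Clopper-Pearson and those of differences Newcombe (statsmodels 0.14.6), both at 95%. Reads were rounded to whole numbers for intervals. The test was tested on simulated data. The members and gene lists were chosen with earlier results of these data known. Named genes are the genes shared by both GFP-(GR)50 lists, up to 15 and 8 of each GFP-(GR)50 list without a control region, the 5 highest by unique reads in each list, those with 3 or more regions in 1 list (none) and up to 4 of each of 9 gene lists. Of 224 host names, 211 matched a RefSeq symbol and 5 an older one. A few genes that this rule names are not reported here.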

Additional observations from a re-analysis of the deposited data

Results flagged for a closer look

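The share of listed regions in introns not opposite a SINE had a lower value in GFP-(GR)50 than in its control in experiment 1, at -0.234 points against GFP, and higher values in experiment 2, at 3.69 points against GFP-(GP)10 and 0.180 points against untransfected cells. The opposite signs of the experiments drew attention to it. The sign in experiment 1 was not stable, since it turned positive under 5 alternatives, at 0.108 to 3.68 points. The difference between the experiments was not tested, none of the 3 values passed its own test, and the comparisons of experiment 2 share the library of GFP-(GR)50_2.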

How the results depend on the processing

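Over 94 alternative values of the 9 tested shares, 70 kept direction and side of the threshold. The pooled controls give replicate 2 the same value in both of its comparisons, and that value is counted in each. The share of listed regions turned to 0.948 points (at least 5 uniquely mapping reads), 2.19 (same number of top regions), 0.108 (regions within 100 bp as 1), 3.68 (without rRNA) and 1.58 (plus strand) for GFP-(GR)50_1 against GFP, and passed at -4.59 against the controls of both experiments pooled, which are mostly regions of experiment 2 made with another amount of RNase I. For replicate 2 it turned to -1.44 against GFP-(GP)10 with the same number of top regions, and to -1.79 (genes in place of regions) and -2.16 (minus strand) against untransfected cells. It passed there at 4.10 with the same number of top regions, a setting that cuts only the longer list. With introns beside other types counted, which adds snRNA, rRNA, tRNA and same-strand repeats inside introns, it passed at 11.7 against GFP-(GP)10 and 6.87 against untransfected cells.

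The share of intronic regions turned to -16.7 (top regions, 1 intronic region left in GFP) and -30.0 (minus strand) for GFP-(GR)50_1 against GFP, and passed at 53.0 against the pooled controls of both experiments. Against GFP-(GP)10 it passed at 21.0 (other types) and 15.1 (without regions opposite simple or low complexity repeats alone). For replicate 2 against the same pooled controls, which hold GFP, GFP-(GP)10 and untransfected cells, it passed at 10.3. Against untransfected cells it fell short at 8.61 (minus strand) and passed at 16.1 (plus strand). The share opposite another repeat passed against untransfected cells at -33.0 (top regions) and -15.8 (other types). Against the pooled controls of both experiments it passed at -15.3 for replicate 2 and at -61.4 for GFP-(GR)50_1, from 0 of 5 regions. The other causes were not tested. Strand and simple repeat settings were chosen after seeing the data.

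Without each replicate the GFP-(GR)50 mean was 2.73% to 9.44%. Overlaps of 50% of the shorter region or within 100 bp gave the same counts of shared regions. No paired analysis was possible because no control shares 2 replicate numbers with GFP-(GR)50. A block by experiment, which would take the 3 controls as 1 group, was not run.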

Other observations

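A few regions with no or almost no uniquely mapping reads stood out by their width or their scaled reads, and were chosen after their values were seen. In GFP-(GR)50_2 the widest region, 1018 bp in DOCK1, an activator of Rac, had 1 uniquely mapping read and 6 scaled reads. KIAA0825 had 17.9 scaled reads and AKAP6, an anchor of protein kinase A, had 6.50, both with 0 uniquely mapping reads. In the GFP list IMPG1, a protein of the retinal matrix, had 32.9 scaled reads in 21 bp opposite an LTR element, the most of its 14 regions, with 0 uniquely mapping reads.

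SLIT2, a secreted guidance protein, had regions at 3 separate places, 1 with 5 uniquely mapping reads in GFP-(GR)50_2 and 2 with 6 and 7 in untransfected cells, all on the plus strand and opposite no repeat. URI1 was the 1 of 75 host names of GFP-(GR)50_2 that also had an intronic region opposite a SINE, and 10 of the 124 host names in untransfected cells did. The list of untransfected cells held more intronic regions opposite SINEs, 302 against 111.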
